A study of Mus musculus with 7 samples.

Results

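The Hippo pathway genes examined here were Yap1, Wwtr1, Tead1, Tead2, Tead4, Lats1, Lats2, Amot, Amotl2 and Nf2. These 10 genes were taken by symbol from a table of 52636 genes, all 10 were found in it, and all 10 passed the filter on low counts that left 16248 genes for testing. They were measured by RNA-seq in 7 libraries of mouse inner cell mass (ICM), the cell cluster of the blastocyst that forms the epiblast and the primitive endoderm. All embryos had the genotype Sox2Cre;CRAFR26, in which a tamoxifen-inducible CRAF construct switches on ERK signalling and Cre is driven from Sox2, an epiblast gene. They came from mouse lines made with clone 4 or clone 8 of the targeted embryonic stem cells.

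The embryos were flushed at embryonic day 2.5 and kept for 24 h in medium with 250 nM PD173074, which blocks FGF receptors, so FGF input was inhibited in both groups. The tamoxifen group (n = 4, 2 of clone 4 and 2 of clone 8) received 250 nM 4-hydroxytamoxifen for 4 h. The vehicle group (n = 3, 2 of clone 4 and 1 of clone 8) received ethanol for 4 h and carries the time label 0 h. Each library was a pool of 10 ICMs freed of trophectoderm by immunosurgery, and the labels call the tissue epiblast of embryonic day 3.5. Libraries are named by clone and number, as in the sample titles. Whether the pools came from separate litters is not stated, so p-values measure only the spread between these pools.

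Hippo signalling is a kinase relay that keeps the coactivators YAP (Yap1) and TAZ (Wwtr1) out of the nucleus. LATS kinases, helped by angiomotins and the membrane scaffold NF2, phosphorylate the coactivators, and unphosphorylated YAP and TAZ enter the nucleus and bind TEAD transcription factors. In the early embryo this switch separates the lineages: YAP and TEAD4 are active in outer cells and turn on the trophectoderm genes Cdx2 and Gata3, whereas LATS and AMOT hold YAP back in inner cells. Most of this control acts on the proteins, by phosphorylation and location, which transcript counts do not measure.

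Total counts ranged from 22981498 to 42294719 per library. The Hippo genes held between 39 counts (Lats1 in tamoxifen clone4_2) and 6103 counts (Wwtr1 in vehicle clone8_1), and no library was a repeat of another (chi-square over genes of at least 25.2 per degree of freedom for each pair). Markers were checked as summed CPM (counts relative to the library total, adjusted by TMM factors) over lists of 10 genes. Epiblast markers summed to 1678 to 2058 CPM in vehicle and 1734 to 2216 CPM in tamoxifen libraries. Primitive endoderm markers summed to 844.9 to 1148 and 883.7 to 1031 CPM, with Sox7 under 1 CPM in every library. The largest part of that sum was Dab2, with means of 743 CPM in vehicle and 644 CPM in tamoxifen libraries. Gata6 averaged 65.4 and 90.7 CPM, Sox17 2.96 and 17.7 CPM and Gata4 1.19 and 1.68 CPM. Trophectoderm markers summed to 8530 to 11230 CPM in vehicle and 6546 to 9534 CPM in tamoxifen libraries, and 0 of those 10 genes were at 0 or under 1 CPM throughout. Krt18 was the largest part of this sum, with means of 3320 CPM in vehicle and 2799 CPM in tamoxifen libraries. Krt8 followed with 3176 and 2562 CPM. The material labelled epiblast therefore carried abundant trophectoderm transcripts and some transcripts of the primitive endoderm list, unevenly over its genes. Hippo levels below are those of the mixed pools. In such pools fewer cells of a type and less RNA per cell cannot be told apart. Vehicle clone8_1 and tamoxifen clone8_1 had the fewest genes with a count, 19847 and 19287 against 20555 to 22641 in the other libraries. The typical transcripts of the Hippo genes, by the median length over their annotated basic transcripts, ran from 1495 nt (Tead1) to 6738 nt (Amot).

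The sequences shown first are promoter stretches, because TEAD factors act by binding DNA and several Hippo genes are themselves known TEAD targets. RefSeq promoters (GRCm38.p6) were at hand for 8 of the 10 genes, all but Tead1 and Tead4. The 250 bases before each start site were searched on both strands for GGAATG, the core of the TEAD site, which reads CATTCC on the other strand. Yap1, Wwtr1 and Amotl2 held a match, and it is given in capitals below. Amotl2 encodes an angiomotin, a binding partner of YAP. The Yap1 window is chr9:8004597-8004846 (minus strand), that of Wwtr1 chr3:57575911-57576160 (minus strand) and that of Amotl2 chr9:102717554-102717803 (plus strand).
Yap1: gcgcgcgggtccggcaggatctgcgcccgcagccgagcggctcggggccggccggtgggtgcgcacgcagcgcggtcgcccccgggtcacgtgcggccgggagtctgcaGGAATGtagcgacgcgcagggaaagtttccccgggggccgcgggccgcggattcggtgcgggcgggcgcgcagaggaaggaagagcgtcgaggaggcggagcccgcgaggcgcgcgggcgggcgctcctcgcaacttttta
Wwtr1: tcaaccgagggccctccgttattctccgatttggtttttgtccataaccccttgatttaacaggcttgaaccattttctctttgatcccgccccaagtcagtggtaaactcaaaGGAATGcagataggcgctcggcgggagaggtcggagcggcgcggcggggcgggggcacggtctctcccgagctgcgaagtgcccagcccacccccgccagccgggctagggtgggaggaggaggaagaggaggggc
Amotl2: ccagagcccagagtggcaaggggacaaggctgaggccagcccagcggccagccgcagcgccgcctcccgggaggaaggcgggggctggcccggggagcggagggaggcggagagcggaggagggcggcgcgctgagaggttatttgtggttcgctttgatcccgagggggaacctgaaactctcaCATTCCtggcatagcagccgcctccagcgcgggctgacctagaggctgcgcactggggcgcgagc

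The Yap1 match lies 141 to 136 bases before the start site, the Wwtr1 match 136 to 131 bases before it and the Amotl2 match 65 to 60 bases before it. From the other annotated start site of Wwtr1, the same match lies 170 to 165 bases away. Of 32851 promoter windows of this length in the mouse table, 12.6% held GGAATG on either strand. This is a share of windows, whereas the Hippo matches are counted by gene, and Wwtr1, Lats2 and Nf2 have more than a single window. The longer form GGAATGT, which contains the first motif, was in 3.25% of windows and in those of Yap1 and Amotl2. The core of the ETS site, CCGGAA, bound by a factor family that ERK phosphorylates, was in 12.0% of windows and in 0 of the 8 Hippo genes. A match is a stretch of letters and not a measured binding site. The 3 genes with a TEAD match are described with the others below: their log2 fold changes with tamoxifen were 0.27 (Yap1), -0.10 (Wwtr1) and 0.09 (Amotl2), and none passed the test.

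The first question was how abundant each part of the pathway was in the ICM pools. Levels of different genes were compared as CPM per kilobase of typical transcript, with the median and range over the 7 libraries. Tead4, the TEAD factor required for trophectoderm, was highest at 50.3 (35.9 to 56.3) CPM per kilobase, above 86.4% of all tested genes. Nf2, which encodes the scaffold Merlin, followed at 39.3 (36.5 to 57.0). Tead2 (23.9, range 20.3 to 38.1), Wwtr1 (23.2, range 16.7 to 32.2) and Tead1 (18.2, range 13.6 to 33.7) formed a middle group. Yap1 (9.67, range 8.64 to 15.7) and Amotl2 (9.54, range 7.71 to 14.9) lay lower. Amot was at 4.23 (3.61 to 6.95), close to the median of all tested genes, which was 3.72. The LATS kinases were lowest, with Lats2 at 2.59 (2.05 to 4.29) and Lats1 at 0.893 (0.402 to 1.51) CPM per kilobase.

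The ranges of most neighbours in this order overlapped. They did not overlap between Amotl2 and Amot or between Lats2 and Lats1. The order depends on the transcript length used. With the longest annotated transcript, 9964 nt for Tead1, that gene fell to 2.73 CPM per kilobase and to place 8, while Tead4 stayed at place 1 (31.2) and Lats1 at place 10 (0.519). Lats2 shares 2955 exon bases with Gm49361, a gene annotated on the same strand that has 0 counts in all 7 libraries. How reads from that stretch were assigned is not stated, so the Lats2 level may be too low.

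**Figure D1:**
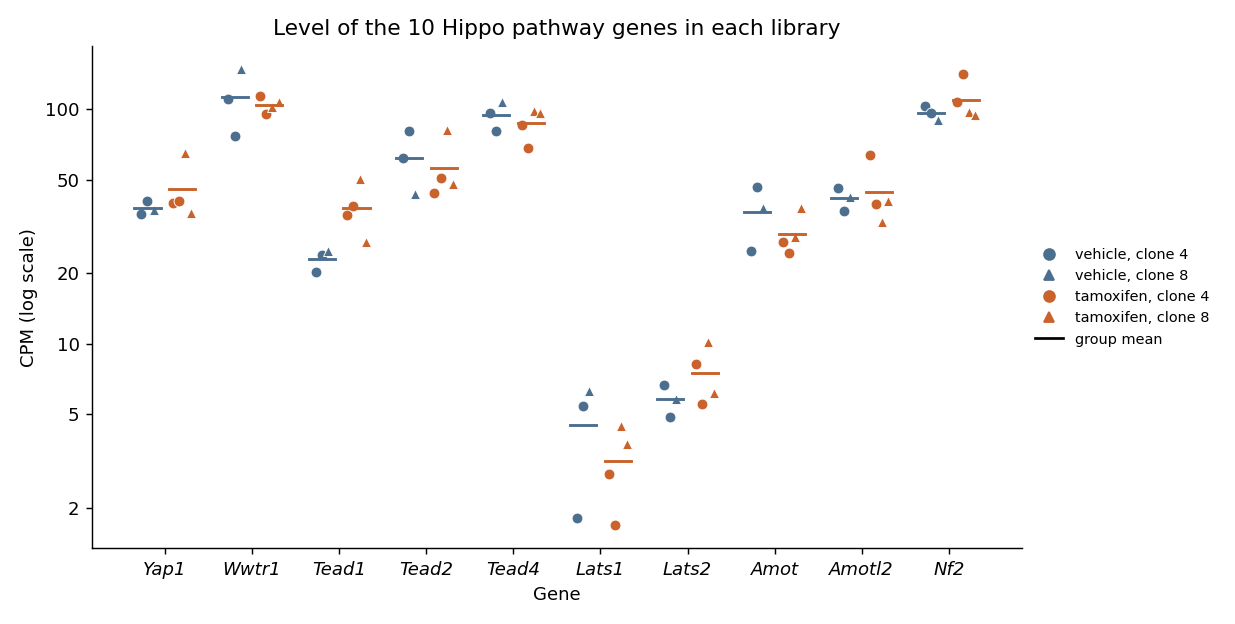
CPM (log axis) of the 10 Hippo pathway genes in each library; each point is a library, circles are clone 4, triangles are clone 8, and the short lines are group means of vehicle (blue) and tamoxifen (orange). Tead1 is the gene whose groups do not overlap (20.3 to 24.8 CPM against 27.2 to 50.4 CPM), and Lats1 and Lats2 are the lowest of the set.

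Within each gene family, 1 member held the largest mean share, shown as the make-up of the families by library. Among the coactivators, Wwtr1 held 69.4% ± 6.76 (SD, n = 7) of the per-kilobase sum and Yap1 30.6% ± 6.76 (SD, n = 7). Wwtr1 exceeded Yap1 in 7 of 7 libraries, by 1.40 to 3.59 times. Among the TEAD factors, Tead4 held 49.5% ± 7.42 (SD, n = 7), Tead2 28.2% ± 5.88 (SD, n = 7) and Tead1 21.8% ± 6.04 (SD, n = 7). Tead3, the remaining paralog, held 0.536% ± 0.417 (SD, n = 7), from 8 to 94 counts. Tead4 exceeded Tead2 in 7 of 7 libraries by 1.12 to 2.77 times, whereas Tead2 exceeded Tead1 in 5 of 7.

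Lats2 held 76.2% ± 10.8 (SD, n = 7) of the LATS sum and exceeded Lats1 in 7 of 7 libraries. Of the angiomotins, which tether YAP in the cytoplasm and activate LATS, Amotl2 held 66.2% ± 8.20 (SD, n = 7), Amot 32.1% ± 7.84 (SD, n = 7) and Amotl1 1.65% ± 0.592 (SD, n = 7). With longest transcripts in place of typical ones the leading gene of each family stayed the same. The share of Tead1 then fell to 6.36% and that of Tead4 was 58.8%.

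**Figure D2:**
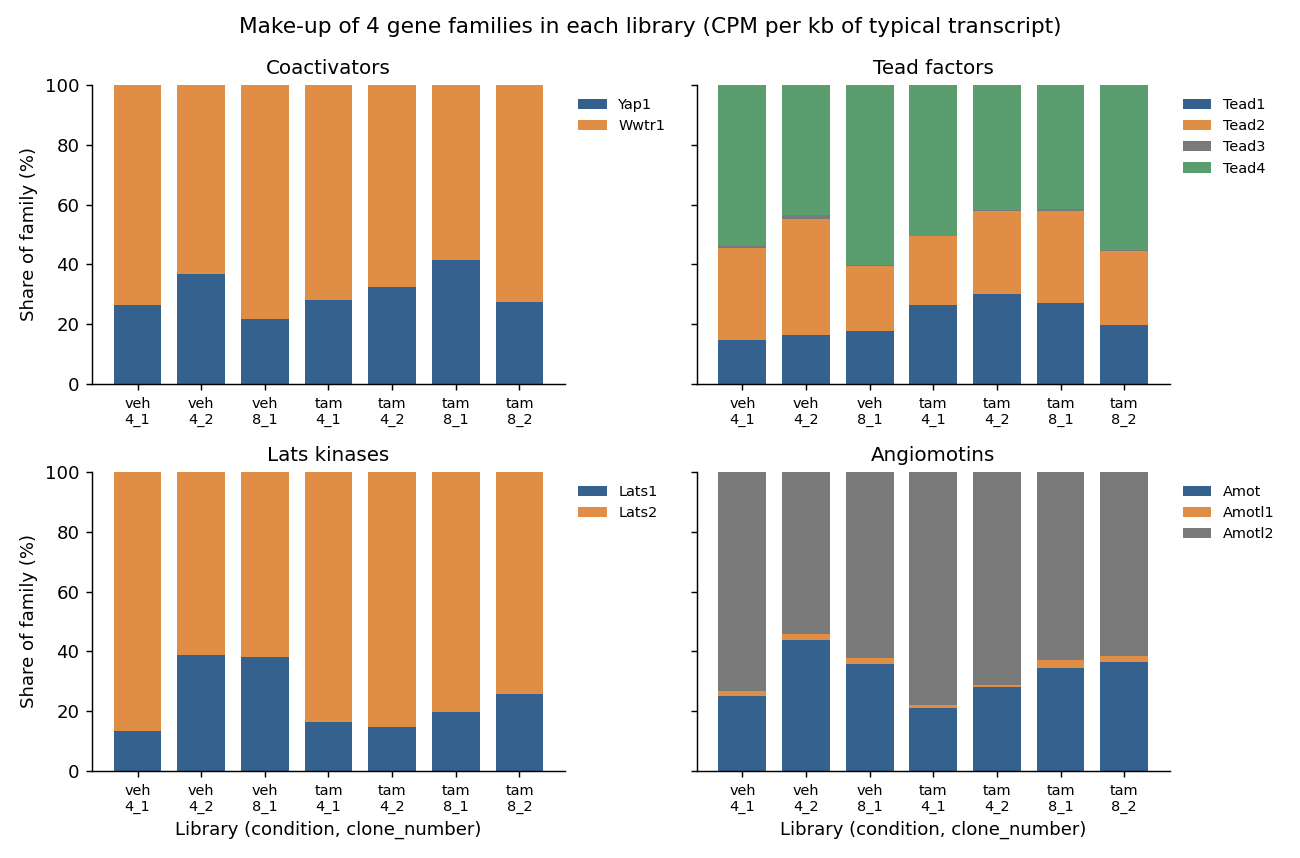
Share (%) of each gene in the per-kilobase level of its family, as stacked bars for each of the 7 libraries (veh is vehicle, tam is tamoxifen, then clone and number). Wwtr1, Lats2 and Amotl2 hold the larger part of their bars in every library, and the Tead1 part is 14.6% to 17.8% with vehicle and 19.9% to 30.1% with tamoxifen.

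The second question was whether these genes changed with 4 h of tamoxifen, given to switch on ERK signalling through CRAF. ERK activity itself was not measured here. All embryos carried the construct, so an effect of tamoxifen itself cannot be told apart. Called genes are those with a Benjamini-Hochberg adjusted p under 0.05 by the quasi-likelihood method of edgeR, over all 16248 tested genes. Of 10 Hippo genes 0 were called, and 0% of all tested genes. Over the 10 genes the smallest adjusted p was 0.794. DESeq2 called 4 of all genes and 0 Hippo genes. At an unadjusted p under 0.05 there was 1 Hippo gene, Tead1, where 5.97% of all tested genes lay (2.69% higher and 3.28% lower). The fitted change was above 0 for 5 Hippo genes and below 0 for 5, and above 0 for 51.7% of all genes. Their median log2 fold change was -0.0093, against 0.019 over all genes. Groups did not overlap for 1 of the 10 genes, against 8.45% of all tested genes.

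Tead1 encodes a TEAD factor expressed in many embryonic tissues, and it lies on chromosome 7 (112679318 to 112906807, plus strand, GRCm38). Its vehicle libraries had 20.3 (clone4_1), 24.0 (clone4_2) and 24.8 CPM (clone8_1). In the tamoxifen libraries it had 35.3 (clone4_1), 38.7 (clone4_2), 50.4 (clone8_1) and 27.2 CPM (clone8_2). Each tamoxifen library thus lay above each vehicle library, with clone8_2 nearest to the vehicle values. Among all tested genes, 3.71% had groups apart in this direction. The means were 23.0 ± 2.36 CPM (SD, n = 3) and 37.9 ± 9.62 CPM (SD, n = 4). This is a log2 fold change of 0.72 ± 0.23 (SE), a ratio of 1.64 with a 95% interval from 1.15 to 2.35. It did not pass the test over all genes (unadjusted p = 0.0114, adjusted p = 0.794, edgeR).

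The change of Tead1 was between 0.55 and 0.85 on the log2 scale in all 19 alternatives, and its unadjusted p was under 0.05 in each. Over those alternatives the adjusted p ran from 0.378 to 0.961. Its share of the TEAD sum was 14.6% to 17.8% with vehicle and 19.9% to 30.1% with tamoxifen. That share rests on the same counts as the fold change and is no second observation. The groups of Tead2 and Tead4 overlapped.

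Tead2 encodes a TEAD factor that is transcribed from early cleavage on, and its gene is on chromosome 7 (45215753 to 45233644, plus strand). Its vehicle libraries had 61.9 (clone4_1), 80.9 (clone4_2) and 43.5 CPM (clone8_1), and it had 43.8, 51.2, 81.5 and 48.2 CPM in tamoxifen clone4_1, clone4_2, clone8_1 and clone8_2. The groups overlapped over nearly their whole range. For Tead2 the log2 fold change was -0.14 ± 0.27 (SE), with a 95% interval of the ratio from 0.596 to 1.37. In clone 4 both tamoxifen libraries were below both vehicle libraries, and in clone 8 both were above the single vehicle library.

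Tead4 (chromosome 6, 128224288 to 128300823, minus strand) had 96.1, 81.0 and 107 CPM in the vehicle libraries, in the same order. It had 85.9, 68.6, 98.2 and 96.2 CPM in the tamoxifen libraries. The groups overlapped, and the lowest value belonged to tamoxifen clone4_2. The log2 fold change was -0.12 ± 0.18 (SE), with a 95% interval of the ratio from 0.694 to 1.22. It was -0.22 without vehicle clone4_2, -0.034 without tamoxifen clone4_2 and -0.031 without vehicle clone8_1.

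Yap1 encodes the coactivator YAP, and its gene is on chromosome 9 (7931999 to 8004596, minus strand). It had 35.8, 40.5 and 37.2 CPM in vehicle and 40.0, 40.7, 65.1 and 36.3 CPM in tamoxifen libraries. All but 1 of the 7 values lay between 35.8 and 40.7 CPM, and tamoxifen clone8_1 stood above them. Yap1 had a log2 fold change of 0.27 ± 0.23 (SE), a ratio of 1.20 with a 95% interval from 0.85 to 1.71. Without tamoxifen clone8_1 it was 0.047, so the size of the change rests on that library.

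Wwtr1, which encodes TAZ, is on chromosome 3 (57455649 to 57575910, minus strand). It had 111, 77.3 and 149 CPM in vehicle and 114, 95.1, 102 and 107 CPM in tamoxifen libraries. The tamoxifen values lay within the range of the vehicle values, whose spread was 35.7 CPM (SD, n = 3) against 8.10 CPM (SD, n = 4). Wwtr1 had a log2 fold change of -0.10 ± 0.21 (SE), and without vehicle clone8_1, the library with the highest value, it was 0.14.

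**Figure D3:**
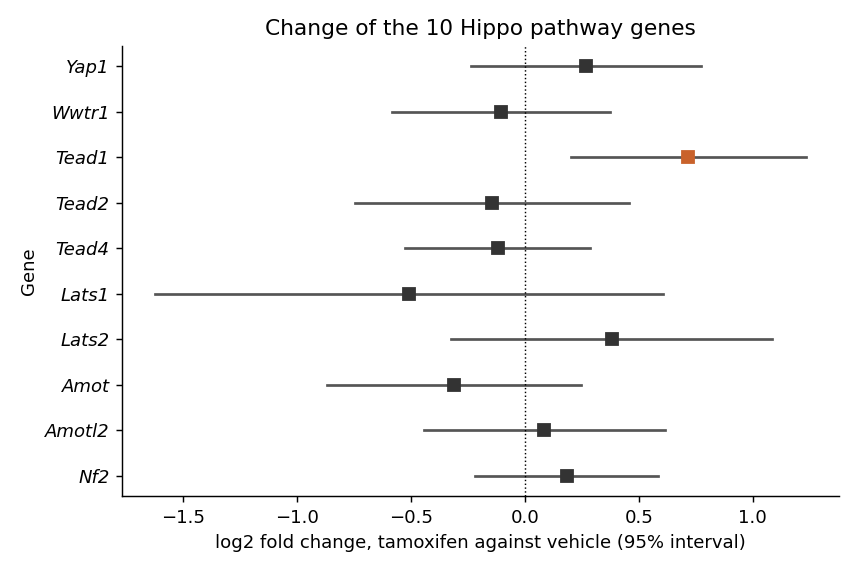
Log2 fold change of each of the 10 Hippo pathway genes, tamoxifen against vehicle, with its 95% interval from edgeR; squares are estimates, orange where the groups do not overlap. The interval of Tead1 lies above 0 (unadjusted for the number of genes tested), and the other 9 intervals include 0.

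The LATS kinases phosphorylate YAP and TAZ. Lats1 (chromosome 10, 7681214 to 7716460, plus strand) had 1.81, 5.42 and 6.31 CPM in vehicle and 2.79, 1.68, 4.44 and 3.74 CPM in tamoxifen libraries. All tamoxifen values but that of clone4_2 lay within the vehicle range, on 39 to 259 counts a library. Its log2 fold change of -0.51 ± 0.50 (SE) had a 95% interval of the ratio from 0.324 to 1.52, the widest of the set on the log2 scale. Without vehicle clone4_1 it was -0.91, without tamoxifen clone4_2 -0.32 and without vehicle clone8_1 -0.20.

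Lats2 (chromosome 14, 57689662 to 57758388, minus strand) is a kinase gene and also a known target of YAP. It had 6.65, 4.89 and 5.82 CPM in vehicle and 8.19, 5.56, 10.2 and 6.17 CPM in tamoxifen libraries. The 2 highest values were those of tamoxifen clone4_1 and clone8_1, and the groups overlapped. Lats2 had a log2 fold change of 0.38 ± 0.32 (SE), with a 95% interval of the ratio from 0.798 to 2.12. Without tamoxifen clone8_1 it was 0.20.

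Amot encodes the angiomotin that holds YAP in the cytoplasm of inner cells, and its gene is on the X chromosome (145446425 to 145505181, minus strand). It had 24.9, 46.8 and 38.1 CPM in vehicle and 27.1, 24.4, 28.5 and 38.1 CPM in tamoxifen libraries. The groups overlapped, with 1 vehicle and 3 tamoxifen libraries under 30 CPM. Its log2 fold change was -0.31 ± 0.25 (SE), with a 95% interval of the ratio from 0.548 to 1.19. Without vehicle clone4_1 it was -0.54 (unadjusted p = 0.0486, edgeR), and without vehicle clone4_2 it was -0.096. Xist, transcribed from the inactive X of female cells, ranged from 37.8 to 124 CPM over the pools. Both genes were highest in vehicle clone4_2, but tamoxifen clone8_1 had 110 CPM of Xist with 28.5 CPM of Amot, and tamoxifen clone8_2 had 42.8 CPM of Xist with 38.1 CPM of Amot. Its part in the Amot values was not tested.

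Amotl2 (chromosome 9, 102716672 to 102733418, plus strand) had 46.3, 36.7 and 42.2 CPM in vehicle and 63.8, 39.4, 33.0 and 40.8 CPM in tamoxifen libraries. Both the highest and the lowest value were tamoxifen libraries. Amotl2 had a log2 fold change of 0.09 ± 0.24 (SE), and without tamoxifen clone4_1 it was -0.17.

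Nf2 (chromosome 11, 4765845 to 4849536, minus strand) had 103, 96.3 and 90.2 CPM in vehicle and 107, 141, 97.1 and 94.3 CPM in tamoxifen libraries. All libraries but tamoxifen clone4_2 lay between 90.2 and 107 CPM, and the groups overlapped. The log2 fold change was 0.18 ± 0.18 (SE), with a 95% interval of the ratio from 0.858 to 1.50. Without tamoxifen clone4_2 it was 0.028, so its size rests on that library. Nf2, Tead4 and Wwtr1, the genes with the most counts, had the narrowest intervals on the log2 scale.

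No library was the highest for all Hippo genes. Tamoxifen clone8_1 was the highest library for 4 of the 10, Yap1, Tead1, Tead2 and Lats2, and for 22.2% of all tested genes. Vehicle clone8_1 was the highest for Wwtr1, Tead4 and Lats1, and for 20.6% of all tested genes. These are the libraries with the fewest genes detected. With both left out, the log2 fold change of Tead1 was 0.60, that of Wwtr1 0.16 and that of Yap1 0.029. Tead2 then had -0.59 (unadjusted p = 0.0104, edgeR), and 0 Hippo genes were called.

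**Figure D4:**
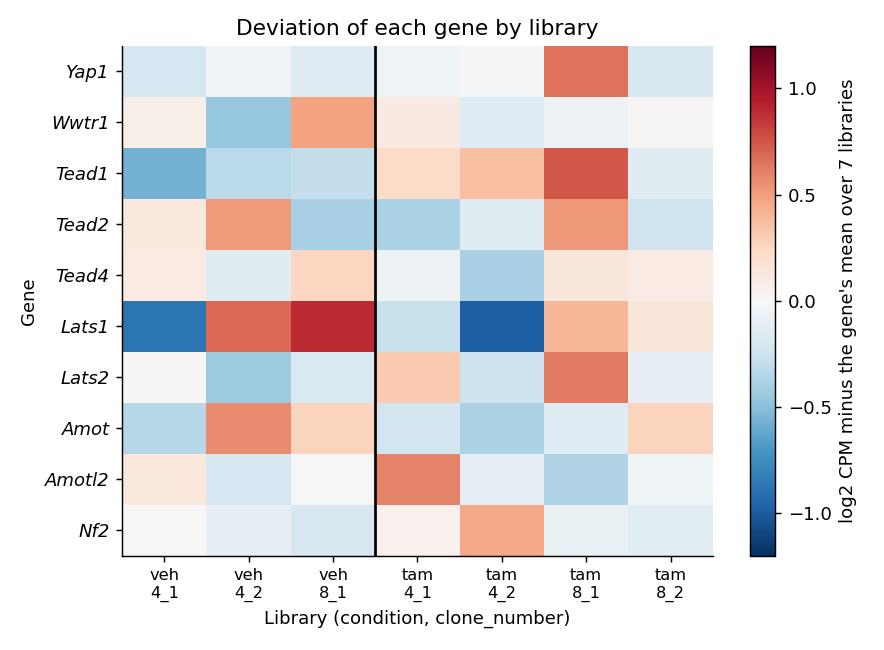
Deviation of each Hippo gene (rows) from its own mean over the 7 libraries (columns, vehicle left and tamoxifen right of the line), in log2 CPM with red above and blue below the mean. Tead1 is below its mean in the 3 vehicle libraries and in tamoxifen clone8_2, and tamoxifen clone8_1 is high for Yap1, Tead1, Tead2 and Lats2.

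Genes with the most similar profile were sought for 5 Hippo genes among 8051 genes with a mean of at least 10 CPM. The measure was the root-mean-square difference of centred log2 CPM over the 7 libraries. Yap1 was nearest to Aldh16a1 (0.071), Trp53rkb (0.076) and Dot1l (0.082), against a spread of its own of 0.298 (SD). Tead4 was nearest to Alkbh3 (0.080), Ap4m1 (0.090) and Sh3d21 (0.090). Lats2 was nearest to Top2b (0.078), Exoc8 (0.090) and Mapk13 (0.103). Amot was nearest to P4hb (0.086), Dusp6 (0.097), an ERK phosphatase gene, and Tmem30b (0.119). Tead1, added after its values were seen, was nearest to Impad1 (0.096), Zfyve26 (0.128) and Lama5 (0.129). None of the nearest genes was another Hippo gene. With 7 libraries and 8051 candidates, such likeness is a description only.

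Next, the clones were compared. Within clone 4, with 2 libraries a condition, 0 of the 10 Hippo genes were called and 0% of 16060 tested genes (edgeR); DESeq2 called 120 genes, of which 0 were Hippo genes. At an unadjusted p under 0.05 there were 2 Hippo genes, Tead1 and Tead2, where 7.87% of all tested genes lay. Tead1 had a log2 fold change of 0.73 ± 0.22 (SE) in clone 4, and the corresponding difference of mean log2 CPM in clone 8 was 0.58, with 1 vehicle library and so no test. Tead2 had -0.60 ± 0.21 (SE; unadjusted p = 0.0241, adjusted p = 0.596, edgeR) in clone 4 and a difference of 0.53 in clone 8. Wwtr1 also differed in sign, with 0.14 ± 0.22 (SE) in clone 4 and -0.51 in clone 8, as did Amotl2, with 0.31 ± 0.27 (SE) and -0.20.

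The difference between clones was tested as an interaction of clone and condition. It called 0 of 10 Hippo genes, against 3.16% of all tested genes. For Tead2 the interaction was 1.17 ± 0.46 (SE; unadjusted p = 0.0330, adjusted p = 0.288, edgeR), at a threshold that 14.8% of all tested genes passed unadjusted. For Tead1 it was -0.089 ± 0.50 (SE; unadjusted p = 0.862, edgeR). The test rests on vehicle clone8_1, and an effect of the clone and one of that single library cannot be told apart. With condition in the model, clone 8 against clone 4 called 0 Hippo genes and 0% of all genes (edgeR), and 13 genes with DESeq2, of which 0 were Hippo genes. At an unadjusted p under 0.05 it gave 3.13% of all genes and none of the Hippo genes, whose smallest unadjusted p was 0.0947 (Tead4, edgeR).

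The rest of the pathway was read from lists drawn up by role. In the kinase arm and its adaptors, 0 of 16 genes were called, 5 having fitted changes above 0 and 11 below, with a median log2 fold change of -0.27. This list also holds Sav1, Mob1a, Mob1b, Amotl1, Tead3, Vgll1, Vgll3 and Vgll4, which are not kinase genes. All of these had changes below 0 (-0.56 to -0.07), so the count and the median are not those of the kinases alone. Of the kinase genes, Taok1, Taok2, Taok3, Map4k4 and Stk38 had changes above 0, and Stk3, Stk4 and Stk38l below. Stk3, an upstream MST kinase gene, averaged 58.6 ± 21.3 (SD, n = 3) and 45.4 ± 9.10 CPM (SD, n = 4) in the vehicle and tamoxifen groups. Mob1a, a LATS cofactor gene, averaged 57.7 ± 7.26 (SD, n = 3) and 54.9 ± 2.96 CPM (SD, n = 4). Sav1, the scaffold gene of the MST kinases, was low, at 0.166 to 0.722 CPM. By smallest p the list was led by Taok3, a kinase gene of the TAO family that acts on MST kinases. It had 2.08 to 3.73 CPM in vehicle and 4.10 to 5.96 CPM in tamoxifen libraries, which did not overlap, like 3.71% of all tested genes in that direction. Taok3 differed by 0.84 ± 0.35 on the log2 scale (SE; unadjusted p = 0.0401, adjusted p = 0.794, edgeR). Stk38, which encodes a LATS-related kinase, was next with 0.41 ± 0.20 (SE).

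Among 24 genes of upstream inputs and polarity, 22 were tested and 0 were called, 12 with changes above 0 and 10 below. Fat4 and Dchs1, the atypical cadherins, did not pass the filter on low counts. Pals1, a gene of the apical Crumbs complex, was the gene whose groups did not overlap, with 26.6 to 39.8 CPM in vehicle and 19.1 to 23.8 CPM in tamoxifen libraries. Of all tested genes, 4.74% lay apart in that direction. For Pals1 the fitted log2 difference was -0.63 ± 0.21 (SE; unadjusted p = 0.0124, adjusted p = 0.794, edgeR). Ptpn14, which encodes a phosphatase that restrains YAP, had a fitted log2 difference of 2.22 ± 0.89 (SE; unadjusted p = 0.0319, adjusted p = 0.794, edgeR) on 5 to 85 counts. Cdh1, the E-cadherin gene of the ICM junctions at which angiomotin gathers, averaged 659 ± 25.8 (SD, n = 3) and 546 ± 93.0 CPM (SD, n = 4), and its groups overlapped.

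Of 20 YAP and TEAD targets known from cultured cells, 13 were tested, 0 were called, 4 had changes above 0 and 9 below. The median log2 fold change was -0.33, with a median SE of 0.67 that exceeds it. Ccn1, a matricellular target gene, spanned 19.7 to 49.6 CPM in vehicle and 20.0 to 37.9 CPM in tamoxifen libraries. Ccn2, its relative, was at 0.592 to 8.89 CPM and Ankrd1 at 0 to 0.521 CPM. The smallest unadjusted p-values were those of Dock5 (log2 fold change 0.56 ± 0.26, SE) and F3, the tissue factor gene (-1.42 ± 0.67, SE), at 0.0554 and 0.0589 in edgeR's test.

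In the embryo TEAD4 and YAP turn on the trophectoderm genes Cdx2 and Gata3. The trophectoderm list was drawn up by lineage and is no measure of TEAD4 or YAP activity. Of the 10 trophectoderm markers, 0 were called, and the fitted changes were below 0 for 10 of 10, with a median log2 fold change of -0.33. Gata3 averaged 929 ± 87.4 (SD, n = 3) and 670.1 ± 42.7 CPM (SD, n = 4) in the vehicle and tamoxifen groups (unadjusted p = 0.00803, adjusted p = 0.794, edgeR), and with Elf3 it was 1 of 2 markers whose groups did not overlap, where 4.74% of all tested genes lay apart in that direction. Elf3 had a log2 fold change of -0.53 ± 0.18 (SE). Cdx2 averaged 516 ± 29.1 (SD, n = 3) and 424 ± 70.4 CPM (SD, n = 4), and its groups overlapped. Tead4 itself had a fitted change of -0.12, smaller than its SE of 0.18. Over the list, in which Krt18 and Krt8 had the highest means, the markers summed to 11230 (clone4_1), 8530 (clone4_2) and 9022 CPM (clone8_1) in vehicle. With tamoxifen the sums were 7938 (clone4_1), 6565 (clone4_2), 9534 (clone8_1) and 6546 CPM (clone8_2). In the same order of libraries, Tead1 had 20.3, 24.0 and 24.8 CPM in vehicle and 35.3, 38.7, 50.4 and 27.2 CPM with tamoxifen. The part of trophectoderm content in the Hippo values was not tested.

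The inner lineages were read in the same way. Of 10 epiblast markers 0 were called and 8 had changes above 0 (median 0.41). By smallest p, not by size of change, the list was led by Klf4 (0.49 ± 0.19, SE) and Fgf4 (0.89 ± 0.42, SE). The 2 below 0 were Nanog (-0.16 ± 0.21, SE) and Tfcp2l1 (-0.11 ± 0.16, SE), which had the highest mean CPM of the list. Of 9 tested primitive endoderm markers 0 were called and 6 had changes above 0 (median 0.49). The 3 below 0 were Pdgfra (-0.50 ± 0.45, SE), Dab2 (-0.21 ± 0.16, SE), the most abundant of the list, and Fgfr2 (-0.07 ± 0.24, SE). The summed CPM of the list, given above, overlapped between the groups. Lama1 (1.35 ± 0.36, SE) and Sox17 (2.58 ± 0.75, SE) were the markers whose groups did not overlap, both higher with tamoxifen, where 3.71% of all tested genes lay apart in that direction.

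**Figure D5:**
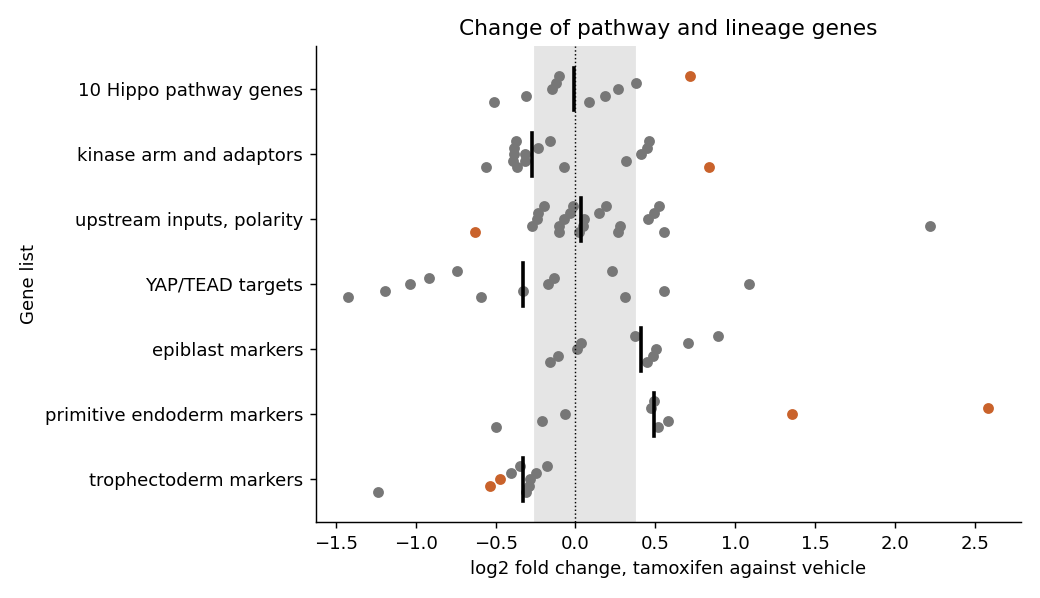
Log2 fold change, tamoxifen against vehicle, of each tested gene (points) in the Hippo set, the other pathway lists and the lineage marker lists; black bars are list medians, orange points have groups that do not overlap, and the grey band holds the middle of all tested genes (the interquartile range). The Hippo set is centred near 0 with Tead1 at 0.72, and all 10 trophectoderm markers lie below 0.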

How the data were processed

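The authors deposited 1 table of raw counts per Ensembl gene, with 1 column for each of 7 libraries. The submitters' processing notes name bcl2fastq 2.19.1, STAR 2.5.3a and the build mm10; the counting program, annotation release, strand setting and duplicate handling are not given in the sources used here. Libraries were made from 2 ng of RNA with an amplifying low-input kit, per the labels' protocols, so counts are not independent molecules. Reads of Yap1 and Tead2 could be confused with antisense genes over 116 and 13 exon bases.

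Symbols, positions and lengths came from GENCODE M21 (GRCm38), matched by gene ID for 52489 genes. Counts were fitted with edgeR 4.0.16 in R 4.3.3 (TMM, expression filter by group, quasi-likelihood test, condition as the only term, Benjamini-Hochberg adjustment over all tested genes, threshold 0.05), and the script was tested on simulated data. Log2 CPM used a prior count of 2. Intervals are 95% intervals of the fit. DESeq2 1.42.0 and limma 3.58.1 were alternatives. Other genes were named when their groups did not overlap or their p was among the 2 smallest of a list; Stk3, Mob1a, Sav1, Cdh1, Ccn1, Ccn2, Ankrd1, Cdx2, Fat4 and Dchs1 were added for their roles. The genes and lists were chosen with earlier results of these data known.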

Additional observations from a re-analysis of the deposited data

Results flagged for a closer look

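Yap1 in tamoxifen clone8_1 lay far from the rest of its group: 65.1 CPM against 36.3 to 40.7 CPM in the other 3 tamoxifen libraries. The gap to the nearest library was 0.847 of the whole range of the group, above the critical value of Dixon's test for a group of 4. Chance gives about 1 such case in 20 groups, and 10 genes and 11 family shares were examined. The same library was the highest for Tead1, Tead2 and Lats2, and it was not left out of the fits; without it the log2 fold change of Yap1 was 0.047 in place of 0.27.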

How the results depend on the processing

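The count of 0 called Hippo genes was the same in all 19 alternatives. Over all genes DESeq2 called 4 and the fit without both clone8_1 libraries 2, against 0; genes at an unadjusted p under 0.05 ranged from 608 (without tamoxifen clone4_1) to 1803 (no filter), against 970; they were 641 without tamoxifen clone4_2 and 1516 without vehicle clone4_1. Hippo genes at an unadjusted p under 0.05 were 2 without both clone8_1 libraries and 2 in clone 4 only, and 1 to 2 when single libraries were left out (2 without vehicle clone4_1, where Amot joined Tead1). The sign of Wwtr1 turned to 0.159 without both clone8_1 libraries and to 0.144 in clone 4 only. With single libraries left out, Wwtr1 ranged from -0.315 (without vehicle clone4_2) to 0.141 (without vehicle clone8_1). Tead2 ranged from -0.378 (without tamoxifen clone8_1) to 0.0894 (without vehicle clone4_2), and Amotl2 from -0.166 (without tamoxifen clone4_1) to 0.204 (without tamoxifen clone8_1). The sign of Amotl2 also turned without vehicle clone4_2 (-0.00189). The cause was not tested. Longest transcripts gave shares of 6.36% for Tead1 and 58.8% for Tead4.

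With the replicate block, Tead1 had a log2 fold change of 0.836 (unadjusted p = 0.00971, adjusted p = 0.852, edgeR) and 0 genes were called; the block changed no other call. Deviations of vehicle and tamoxifen libraries with the same label correlated by 0.00775, 0.0206 and -0.0683 (across genes). Those of libraries with unlike labels correlated by -0.085 to 0.0624. Libraries with the same label share the clone and the number, and these correlations cannot show whether they also share a litter.

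The clone comparisons had alternatives chosen after seeing the data. In clone 4 only, DESeq2 called 120 genes, no filter 217, and single libraries left out 0 to 309 (250 and 309 without vehicle clone4_1 and clone4_2, where the lone vehicle library is assumed to vary like the other group). Between clones, DESeq2 called 13 and no filter 28. The interaction was called in 989 (DESeq2), 991 (no filter) and 52 to 695 genes (single libraries left out, 52 without tamoxifen clone4_2, 107 without tamoxifen clone4_1 and 267 without vehicle clone4_1), against 514. It could not be fitted without vehicle clone8_1. Hippo genes were 0 in each of these. Lats1 rests on 39 to 259 counts a library, the fewest of the Hippo genes; what depth adds to its spread was not tested.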
